A study of Mus musculus with 2 samples.

Results

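The 31 genes described here encode the subunits of voltage-gated sodium and calcium channels, taken by their symbols from the 27998 genes of the matrix. The rule took Scn genes with a number and the letter a or b, and Cacna1, Cacna2d and Cacnb genes. It gave 9 sodium alpha subunits, 4 sodium beta subunits, 10 calcium alpha1 subunits, 4 alpha2delta subunits and 4 calcium beta subunits. The sodium alpha gene listed under the older symbol Scn2a1 fell outside this rule and is named below only as such. Single-nucleus RNA-seq had been run on whole brains of C57BL/6J mice, in 2 libraries of 1 condition each. The WBRT-28d library came from mice whose whole brain had received 2 Gy on 5 occasions, and nuclei were taken 28 days later. The ShamRT-28d library came from mice called untreated in the labels and mock-irradiated in the study's methods, at the same 28 days. Each library pooled 2 mice, and no label ties a nucleus to a mouse.

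Voltage-gated sodium channels open on depolarisation and carry the fast inward current of the action potential. Their large alpha subunit forms the pore and their beta subunits set gating and anchor the channel in the membrane. Voltage-gated calcium channels turn depolarisation into calcium entry, which triggers transmitter release at terminals and gene transcription at the soma. Their alpha1 subunit forms the pore and falls into the L-type (CaV1), P/Q-, N- and R-type (CaV2) and T-type (CaV3) families. The alpha2delta and beta subunits bring high-voltage-activated alpha1 subunits to the membrane. Neuron types are known to differ in which alpha subunits they use, which is why the genes were followed by subtype.

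After filters the WBRT-28d library held 13664 of 15986 barcodes with 53457834 UMIs, and the ShamRT-28d library held 10024 of 11469 barcodes with 39044178 UMIs. A UMI is a counted RNA molecule, and the median per nucleus was 2461 in WBRT-28d and 2313 in ShamRT-28d. The libraries shared 43 barcodes, and the counts of members below were the same without those nuclei in each of the 7 classes where they were taken again. Nuclei were sorted into classes by UMIs of fixed marker genes, none of them a channel gene, so a class named Pvalb interneurons is a set of nuclei like that type by its markers. In no class did markers of a different class outnumber its own among the leading 10 genes, although only 3 of 5 markers of the Rorb cortical class were highest there in WBRT-28d and 2 of 5 in ShamRT-28d. All neurons numbered 6080 nuclei in WBRT-28d and 4662 nuclei in ShamRT-28d, of which 2882 in WBRT-28d and 2200 in ShamRT-28d fell into no subdivision. Shares of nuclei differed between the libraries, with 918 nuclei in WBRT-28d and 389 nuclei in ShamRT-28d in the spiny class and 84 nuclei in WBRT-28d and 228 nuclei in ShamRT-28d in the layer 6 corticothalamic class, so a difference in a broad class also carries its mix of subtypes. Depth within subtypes differed too. Median UMIs were 5363.5 in WBRT-28d and 8442.5 in ShamRT-28d in layer 6 nuclei, and 5951 in WBRT-28d and 7270.5 in ShamRT-28d in Pvalb nuclei. Dentate granule nuclei had the reverse order, at 5049 in WBRT-28d and 4400 in ShamRT-28d.

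For each class and library, the UMIs of a gene over all its nuclei were divided by those of all genes and scaled to 1000000 (CPM). A ratio below is the CPM of WBRT-28d over that of ShamRT-28d, with an exact 95% interval in which counting error is the only error covered. With 1 library per condition no difference between mice could be estimated, so no test is given and every ratio compares these 2 libraries. Ratios past 1.5-fold either way are counted only for genes with at least 50 UMIs over both libraries in the class, and the share of all such genes past the same fold stands beside each first count.

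Most channel genes were highest in neurons. Across 21 classes, 26 of 31 members were highest in a neuron subtype in both libraries, and 17 had the same highest class in both. These counts include Scn4a and Scn10a, which had at most 1 UMI in that class, and Scn11a, likewise at most 1 UMI. Scn4a had 0 UMIs in every ranked class of WBRT-28d, so its class there is only the first of a tie and its match is no result. For 4 members the same class was highest in both libraries with an interval that did not overlap that of the next class: Cacna1e in dentate granule neurons, Cacnb2 in indirect-pathway spiny neurons, Scn1a in Pvalb interneurons and Cacna1c in mural cells. The highest class of Cacnb4 was clear of the next in each library too, but was not the same class. Neurons in no subdivision were not ranked, and some of their clusters were higher. Cluster 23, with 2 nuclei in WBRT-28d and 134 in ShamRT-28d, had 1939 CPM of Cacna1e and 350 CPM of Scn3a in ShamRT-28d. Cluster 6 had 139.6 CPM of Scn9a in WBRT-28d, against 129 CPM in Pvalb interneurons, but 175 CPM in ShamRT-28d, against 304 CPM. Counts per gene tend to follow gene span in nuclear RNA, so levels of different genes were compared per 100 kb of span. On that scale Cacnb4, a calcium beta subunit, had 329.6 CPM per 100 kb in WBRT-28d and 347 CPM per 100 kb in ShamRT-28d over all neurons, and the P/Q-type pore gene Cacna1a had 289 CPM per 100 kb in WBRT-28d and 326 CPM per 100 kb in ShamRT-28d. The skeletal muscle channels Scn4a and Cacna1s, the sensory neuron channels Scn10a and Scn11a and the retinal channel Cacna1f had at most 45 UMIs each in all neurons of a library. Scn4a had 0 UMIs in all neurons of WBRT-28d, which allows up to 0.0937 CPM, and 3 UMIs in ShamRT-28d.

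**Figure D1:**
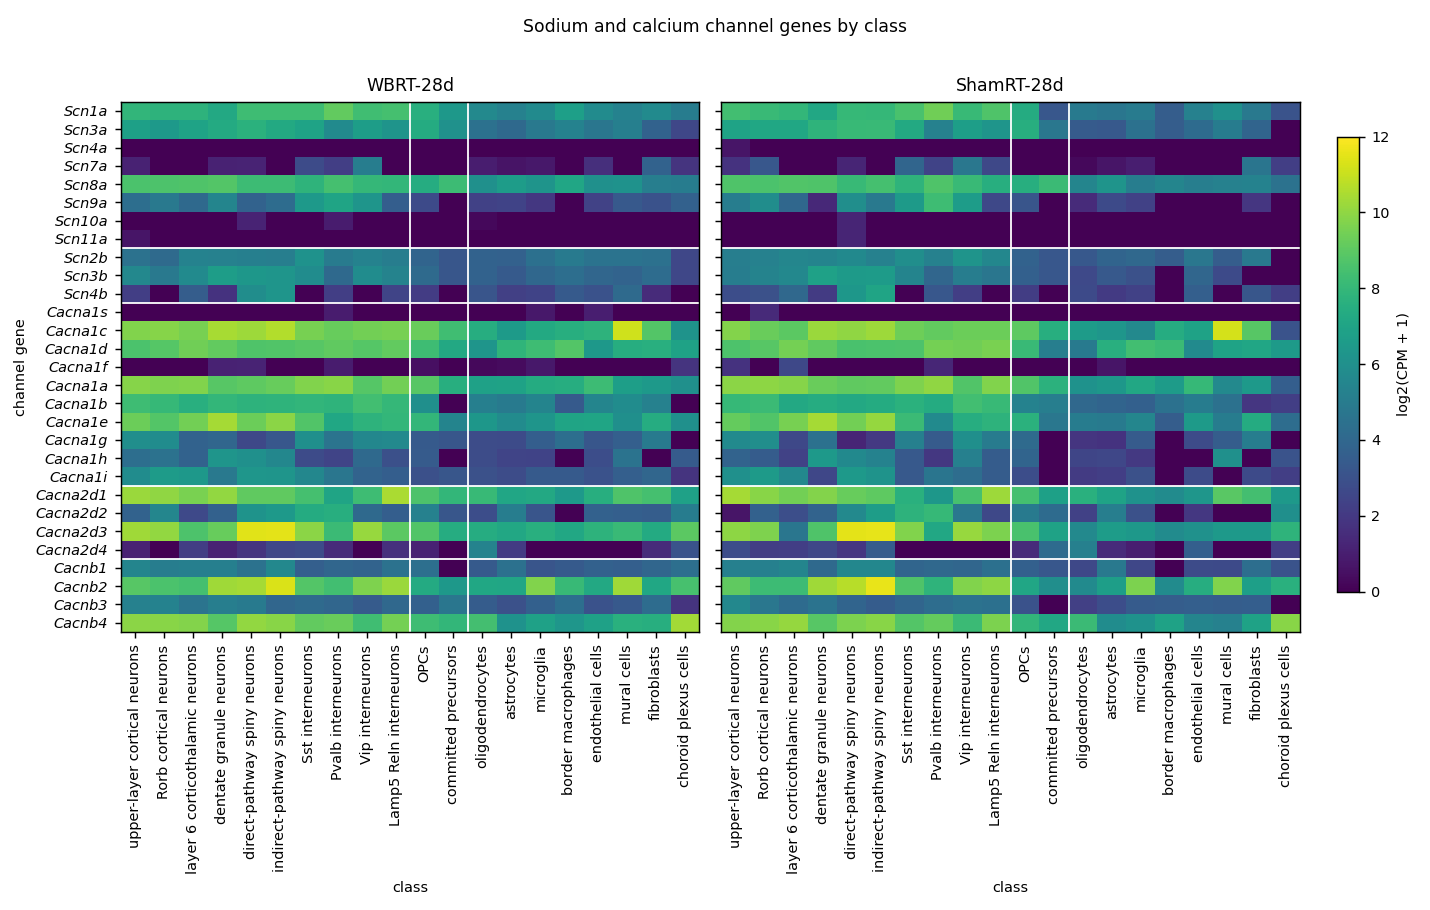
Level of the channel genes (rows, ordered sodium alpha, sodium beta, calcium alpha1, alpha2delta and calcium beta) in 20 classes of nuclei (columns, immature neurons not drawn) as log2(CPM + 1), WBRT-28d at left and ShamRT-28d at right. The left block of columns holds the neuron subtypes, where most rows are brightest, and Cacna1c stands out in mural cells at 2267 CPM in WBRT-28d and 2414 CPM in ShamRT-28d.

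The promoters of Scn1a, Scn9a and Scn4b are shown because their genes carry the subtype patterns that follow. Scn1a and Scn9a are neighbours on chromosome 2. Among the ranked classes both were highest in Pvalb interneurons, and Scn4b was highest in spiny neurons. Each window runs from 250 bases before to 50 bases after the start of the gene, 5′ to 3′, from RefSeq on GRCm38.p6, with CG pairs in capitals.
Scn1a, chr2:66440788-66441087, minus strand: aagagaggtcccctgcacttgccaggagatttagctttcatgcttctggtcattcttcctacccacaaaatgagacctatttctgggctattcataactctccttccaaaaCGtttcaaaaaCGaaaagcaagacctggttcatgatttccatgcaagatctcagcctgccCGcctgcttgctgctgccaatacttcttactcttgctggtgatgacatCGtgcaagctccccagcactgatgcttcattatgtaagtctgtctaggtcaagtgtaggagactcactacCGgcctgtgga
Scn9a, chr2:66634913-66635212, minus strand: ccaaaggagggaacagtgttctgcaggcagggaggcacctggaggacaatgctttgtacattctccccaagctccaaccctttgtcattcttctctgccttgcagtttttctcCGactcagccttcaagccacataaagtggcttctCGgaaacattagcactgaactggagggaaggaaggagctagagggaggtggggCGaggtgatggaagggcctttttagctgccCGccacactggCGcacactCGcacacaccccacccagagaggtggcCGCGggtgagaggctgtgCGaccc
Scn4b, chr9:45138374-45138673, plus strand: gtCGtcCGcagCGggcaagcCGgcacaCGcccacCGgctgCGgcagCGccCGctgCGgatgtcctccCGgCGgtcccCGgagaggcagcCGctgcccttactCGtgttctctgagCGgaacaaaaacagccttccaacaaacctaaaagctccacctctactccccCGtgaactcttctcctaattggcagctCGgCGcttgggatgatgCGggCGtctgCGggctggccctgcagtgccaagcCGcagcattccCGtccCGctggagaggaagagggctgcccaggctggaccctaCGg
The Scn1a window holds 5 CG pairs, that of Scn9a 9 and that of Scn4b 26, against a median of 7 over all 32851 windows of this length. Of the 31 members, 23 matched the table. The TATA box motif TATAAA, searched on both strands, was found in a window of 1 member, Cacna1d, and in 13.6% of all windows. The RE1 core TTCAGCACC, searched the same way, was found in a window of 0 members and in 0.371% of all windows, which says only that these letters are not in these stretches.

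Among the sodium alpha subunits, Scn1a, the NaV1.1 pore of fast-spiking inhibitory neurons, lies at chr2:66270778-66440840, minus strand, in GRCm38. It was highest in Pvalb interneurons, at 549.6 CPM (507 to 595) in WBRT-28d and 684 CPM (623 to 748) in ShamRT-28d. That was 1.55 times (1.30 to 1.86) in WBRT-28d and 1.67 times (1.32 to 2.14) in ShamRT-28d the level of Lamp5 Reln interneurons, the next class. It was also 2.21 times (2.02 to 2.42) in WBRT-28d and 2.25 times (2.04 to 2.47) in ShamRT-28d the level of excitatory neurons. The order was thus the same in both libraries, with Pvalb interneurons clear of every other ranked class. Scn9a, the NaV1.7 pore best known from pain-sensing neurons, lies at chr2:66480080-66634962, minus strand. It reached 129 CPM (109 to 152) in WBRT-28d and 304 CPM (265 to 348) in ShamRT-28d in Pvalb interneurons. Lamp5 Reln interneurons, in contrast, held 5 UMIs in WBRT-28d and 1 UMI in ShamRT-28d. In ShamRT-28d the Pvalb level stood clear of Vip interneurons, next at 99.1 CPM, while in WBRT-28d its interval overlapped that of Sst interneurons, at 85.0 CPM.

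Scn8a, the NaV1.6 pore of the axon initial segment, was spread widely. It had 439.7 CPM in WBRT-28d and 415 CPM in ShamRT-28d in dentate granule neurons, 408 CPM in WBRT-28d and 432 CPM in ShamRT-28d in layer 6 corticothalamic neurons and 352 CPM in WBRT-28d and 412 CPM in ShamRT-28d in Pvalb interneurons. No class led in both libraries. Scn3a, the NaV1.3 pore prominent in the embryonic brain, was highest among spiny neurons, with 200.2 CPM in WBRT-28d and 269 CPM in ShamRT-28d in the direct-pathway class and 153 CPM in WBRT-28d and 277 CPM in ShamRT-28d in the indirect-pathway class. Its level in oligodendrocyte precursor cells (OPCs), 164 CPM in WBRT-28d and 183 CPM in ShamRT-28d, stood beside 124 CPM in WBRT-28d and 151 CPM in ShamRT-28d over all neurons. Scn2a1, the NaV1.2 pore outside the rule, had 375 CPM in WBRT-28d and 475 CPM in ShamRT-28d over all neurons. Scn7a, a sodium-sensing relative, was highest in Vip interneurons, with 10 UMIs in WBRT-28d and 7 UMIs in ShamRT-28d.

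The sodium beta genes were short and had few UMIs, and they differed in where they were highest. Scn4b, whose product supports resurgent current, was highest in indirect-pathway spiny neurons, at 74.9 CPM (57.4 to 96.0) in WBRT-28d and 127 CPM (102 to 157) in ShamRT-28d, ahead of 58.6 CPM in WBRT-28d and 79.8 CPM in ShamRT-28d in direct-pathway spiny neurons. The intervals of these spiny subtypes overlapped in both libraries. The indirect-pathway level was 1.28 times (0.858 to 1.91) in WBRT-28d and 1.59 times (1.13 to 2.25) in ShamRT-28d the direct-pathway level. Outside spiny neurons no ranked class was above 16.8 CPM in either library. Scn3b was highest in dentate granule neurons in both libraries, at 102 CPM in WBRT-28d and 116 CPM in ShamRT-28d, with intervals that overlapped those of spiny subtypes. Scn2b was highest in Sst interneurons in WBRT-28d, with 12 UMIs, and in Vip interneurons in ShamRT-28d, with 20 UMIs.

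Among the L-type alpha1 genes, Cacna1c, the CaV1.2 pore of smooth muscle, heart and neurons, was highest in mural cells of vessels, at 2267 CPM (2141 to 2398) in WBRT-28d and 2414 CPM (2196 to 2648) in ShamRT-28d. That was 10.7 times (9.19 to 12.4) in WBRT-28d and 20.5 times (14.9 to 29.0) in ShamRT-28d the level of endothelial cells. Among neuron subtypes it was highest in indirect-pathway spiny neurons, at 1556 CPM in WBRT-28d and 1192 CPM in ShamRT-28d. Cacna1d, the CaV1.3 pore that opens at lower voltage, had 682 CPM in WBRT-28d and 723 CPM in ShamRT-28d in layer 6 corticothalamic neurons and 552 CPM in WBRT-28d and 757 CPM in ShamRT-28d in Lamp5 Reln interneurons. The leading class of Cacna1d differed between the libraries.

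The CaV2 genes, which serve transmitter release, split by subtype. Cacna1e, the R-type pore gene at chr1:154390731-154884501, minus strand, was highest in dentate granule neurons, at 1318 CPM (1240.5 to 1399) in WBRT-28d and 1352 CPM (1262 to 1447) in ShamRT-28d, which was 1.92 times (1.80 to 2.04) in WBRT-28d and 2.03 times (1.89 to 2.18) in ShamRT-28d the level of excitatory neurons. It was low in Pvalb interneurons, at 140.1 CPM in WBRT-28d and 51.7 CPM in ShamRT-28d. Cacna1a, the P/Q-type pore, was highest in Pvalb interneurons, at 942 CPM in WBRT-28d and 1045 CPM in ShamRT-28d, with intervals that overlapped those of cortical excitatory subtypes. Cacna1b, the N-type pore, was highest in Vip interneurons, at 333 CPM in WBRT-28d and 330.2 CPM in ShamRT-28d, again with overlapping intervals. The T-type genes, whose channels give low-threshold bursts, all had under 200 UMIs over both libraries in every neuron subtype. Of these, Cacna1i was highest in Rorb cortical neurons, at 94.6 CPM in WBRT-28d and 91.97 CPM in ShamRT-28d, and Cacna1h in dentate granule neurons, at 74.3 CPM in WBRT-28d and 85.6 CPM in ShamRT-28d. For both genes the intervals overlapped those of the next class in each library. Cacna1g was highest in Sst interneurons in WBRT-28d, at 62.4 CPM, and in Vip interneurons in ShamRT-28d, at 62.4 CPM.

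The alpha2delta genes differed in where they were highest, but some were high in the same subtypes. Cacna2d1, a gabapentin-binding subunit, was high in Lamp5 Reln interneurons, at 1432 CPM in WBRT-28d and 1197 CPM in ShamRT-28d, and in upper-layer cortical neurons, at 1171 CPM in WBRT-28d and 1353 CPM in ShamRT-28d. Its Lamp5 Reln level was 11.2 times (9.29 to 13.5) in WBRT-28d and 14.9 times (11.1 to 20.3) in ShamRT-28d that of Pvalb interneurons. Cacna2d2, the other gabapentin-binding subunit, had the reverse order within interneurons and was highest in Pvalb interneurons, at 185 CPM in WBRT-28d and 266 CPM in ShamRT-28d, next to Sst interneurons at 164 CPM in WBRT-28d and 213 CPM in ShamRT-28d. Cacna2d3, at chr14:28904943-29721864, minus strand, was highest in spiny neurons, at 2885 CPM in WBRT-28d and 3045 CPM in ShamRT-28d in the indirect-pathway class and 2820.1 CPM in WBRT-28d and 2929 CPM in ShamRT-28d in the direct-pathway class, with overlapping intervals. The spiny class stood at 1.94 times (1.89 to 1.99) in WBRT-28d and 3.22 times (3.11 to 3.33) in ShamRT-28d the level of excitatory neurons. In upper-layer cortical neurons, where Cacna2d1 was high, Cacna2d3 had 1270 CPM in WBRT-28d and 988 CPM in ShamRT-28d. Cacna2d4, a subunit of retinal channels, was highest in oligodendrocytes, at 39.9 CPM in WBRT-28d and 36.6 CPM in ShamRT-28d, from 208 UMIs in WBRT-28d and 182 UMIs in ShamRT-28d.

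Among the calcium beta genes, Cacnb2, known best as the cardiac beta subunit, lies at chr2:14603088-14987908, plus strand. It was highest in indirect-pathway spiny neurons, at 2584 CPM (2476 to 2696) in WBRT-28d and 3086 CPM (2956 to 3220.3) in ShamRT-28d. That was 1.96 times (1.82 to 2.11) in WBRT-28d and 1.82 times (1.69 to 1.95) in ShamRT-28d the level of direct-pathway spiny neurons. Cacnb4, the beta subunit mutated in the lethargic mouse, was broad, with 871 CPM in WBRT-28d and 1081 CPM in ShamRT-28d in layer 6 corticothalamic neurons. In choroid plexus cells, an epithelium, Cacnb4 had 1299.6 CPM in WBRT-28d and 934 CPM in ShamRT-28d, the highest class in WBRT-28d. Cacnb1 and Cacnb3 were low throughout. Their highest levels were 48.3 CPM in WBRT-28d and 46.0 CPM in ShamRT-28d for Cacnb1, in spiny subtypes, and 39.0 CPM in WBRT-28d and 47.8 CPM in ShamRT-28d for Cacnb3, in cortical subtypes.

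**Figure D2:**
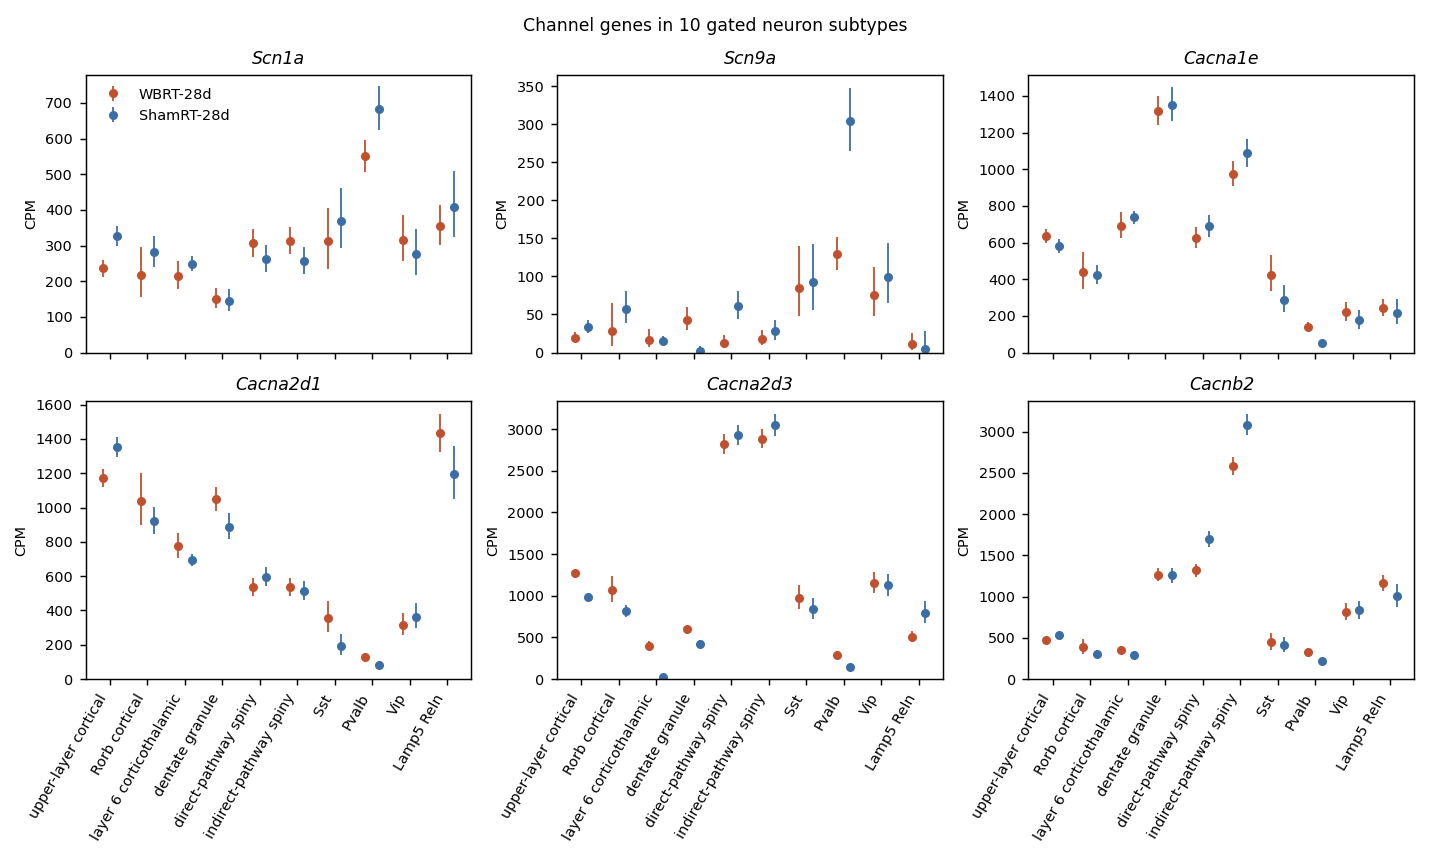
CPM of 6 channel genes in 10 gated neuron subtypes, with WBRT-28d (orange, left of each pair) and ShamRT-28d (blue), and exact 95% Poisson intervals for counting error as bars. Scn1a and Scn9a peak in Pvalb interneurons, Cacna1e in dentate granule neurons and Cacnb2 in indirect-pathway spiny neurons, while Cacna2d3 is lowest in layer 6 corticothalamic neurons of ShamRT-28d, at 25.2 CPM.

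Between the libraries, few channel genes in neurons were past 1.5-fold, and they went both ways. Over all neurons 27 members were measured, 1 past the fold in the higher direction and 1 in the lower direction, against 15.3% of all genes past the fold. The median log2 ratio of the measured members was -0.08, against 0.01 for all genes. In excitatory neurons 26 members were measured, 3 past the fold in the higher direction and 1 in the lower direction, against 13.7% of all genes. In spiny neurons 24 members were measured, 3 past the fold in the higher direction and 3 in the lower direction, against 20.8% of all genes. The interneuron class followed, where 23 members were measured, 2 past the fold in the higher direction and 1 in the lower direction, against 13.5% of all genes. The median log2 ratio of the members was 0.07 in excitatory neurons, 0.02 in spiny neurons and 0.09 in interneurons, and that of all genes was 0.00, 0.09 and -0.03 in the same order. A share of members near that of all genes is no result about channel genes.

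Within subtypes the counts were as low. In upper-layer cortical neurons 2 of 21 measured members were past the fold, against 13.1% of all genes. The count was 2 of 18 in layer 6 corticothalamic neurons (22.0% of all genes) and 1 of 13 in Rorb cortical neurons (24.8%). In dentate granule neurons it was 0 of 15 (16.9%). Direct-pathway spiny neurons had 3 of 21 (24.6%) and indirect-pathway spiny neurons 2 of 19 (22.0%). Pvalb interneurons had the most, with 5 of 16 (17.4%), of which 4 were higher in WBRT-28d. Sst interneurons had 1 of 13 (22.9%), Vip interneurons 0 of 13 (15.5%) and Lamp5 Reln interneurons 1 of 11 (18.5%).

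**Figure D3:**
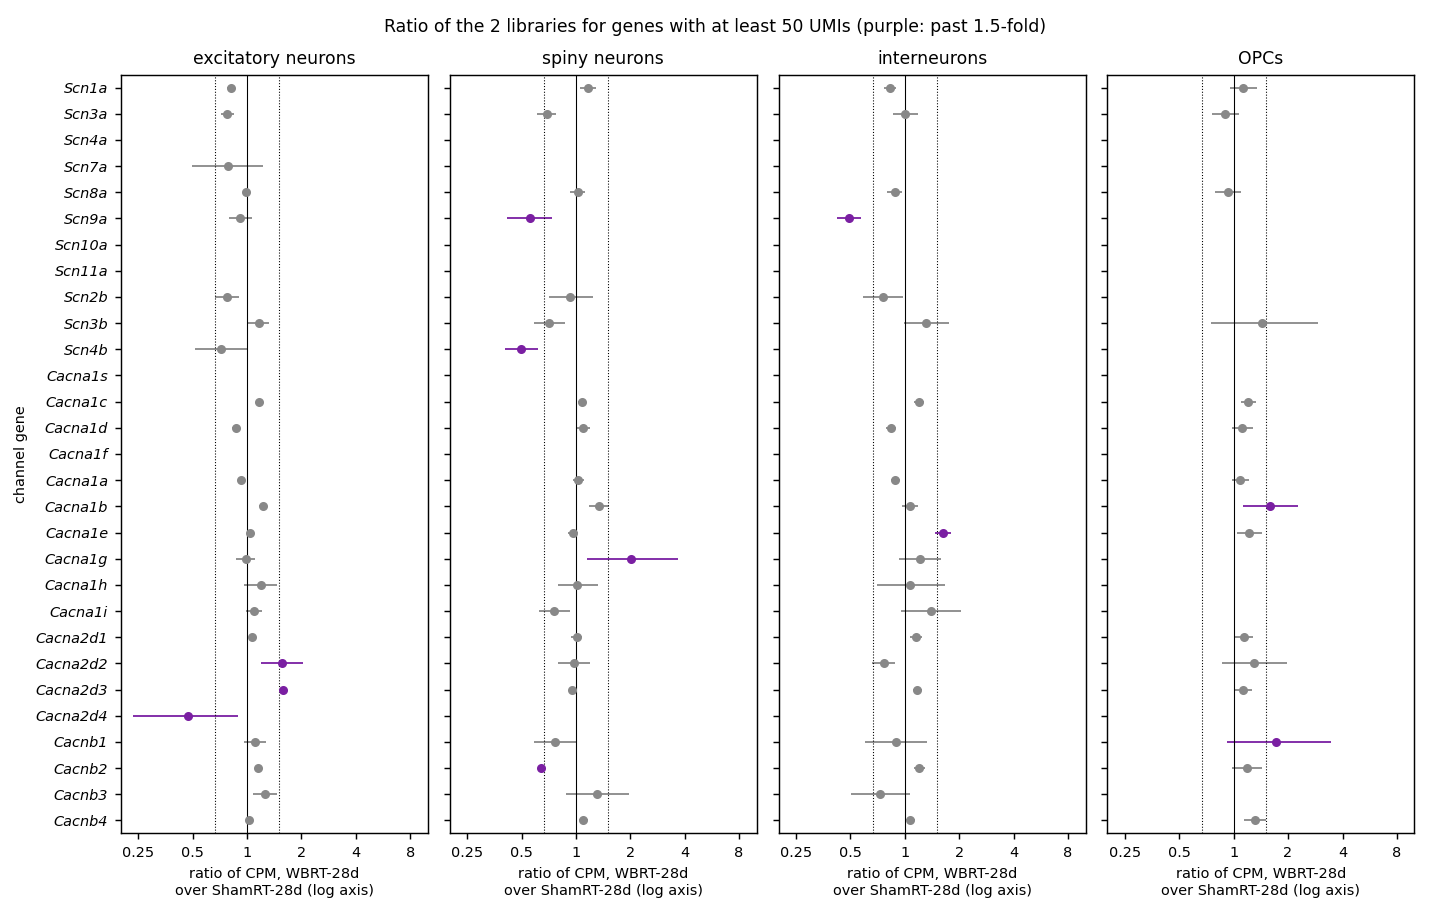
Ratio of CPM, WBRT-28d over ShamRT-28d, on a log axis for channel genes with at least 50 UMIs over both libraries in excitatory neurons, spiny neurons, interneurons and OPCs, with exact 95% intervals as bars and dotted lines at 1.5-fold. Most points lie between the dotted lines, and Scn9a lies to the left in spiny neurons and interneurons.

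Scn9a was lower past the fold in 5 neuron classes, and no other sodium channel gene was so in as many. These are not 5 separate sets of nuclei. Pvalb interneurons lie inside the interneuron class, and direct-pathway spiny neurons inside the spiny class. In Pvalb interneurons, its highest ranked class, it stood at 129 CPM in WBRT-28d, against 304 CPM in ShamRT-28d (ratio 0.425, 0.341 to 0.527). It was lower in direct-pathway spiny neurons, at 12.7 CPM in WBRT-28d, against 60.9 CPM in ShamRT-28d (ratio 0.209, 0.0941 to 0.422), and in the spiny class as a whole, at 25.2 CPM in WBRT-28d, against 45.3 CPM in ShamRT-28d (ratio 0.556, 0.418 to 0.741). Upper-layer cortical neurons had 19.5 CPM in WBRT-28d, against 33.3 CPM in ShamRT-28d (ratio 0.585, 0.366 to 0.920), on 32 UMIs in WBRT-28d and 55 UMIs in ShamRT-28d, but its interval held 1 under a stricter gate, which asked for a factor of 2 over the next class, at 0.543 (0.201 to 1.34), and with classes taken from clusters, at 0.731 (0.416 to 1.26). To see whether the mix of nuclei in a gate moved with such a ratio, it was taken again in the gated nuclei of the cluster that holds most of the class, a step chosen after seeing the data. There the Scn9a ratio was 0.455 (0.361 to 0.573) in Pvalb interneurons, 0.243 (0.105 to 0.504) in direct-pathway and 0.574 (0.413 to 0.799) in spiny neurons. The leading cluster held 81.8% of the gated Pvalb nuclei in WBRT-28d and 88.4% in ShamRT-28d, so the sets were mostly the same nuclei. In upper-layer cortical neurons the Scn9a ratio was 0.216 (0.0405 to 0.745), from 3 UMIs in WBRT-28d and 17 UMIs in ShamRT-28d. Interneurons as a whole had 74.6 CPM in WBRT-28d, against 153 CPM in ShamRT-28d (ratio 0.488, 0.419 to 0.569), and 0.703 (0.482 to 1.03) in their leading cluster. These classes were named because their ratio was past the fold in the lower direction, so their shared direction is no separate result. Their leading clusters hold part of the same nuclei, and the size of the ratio varied. Across excitatory clusters the direction varied. Of 8 measured, the Scn9a ratio was below 1 in 5, with the whole interval below 1 in 2 and above 1 in 1.

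Dentate granule neurons had the opposite order for Scn9a, in a count below the limit of 50 UMIs and therefore named after its values were seen. The gate held 35 UMIs in WBRT-28d and 1 UMI in ShamRT-28d. The whole dentate cluster, of 575 nuclei from WBRT-28d and 649 nuclei from ShamRT-28d, held 80 UMIs in WBRT-28d and 9 UMIs in ShamRT-28d, that is 33.1 CPM in WBRT-28d, against 4.43 CPM in ShamRT-28d (ratio 7.48, 3.75 to 16.9). In the same cluster Scn1a had 173 CPM in WBRT-28d, against 161 CPM in ShamRT-28d (ratio 1.07, 0.925 to 1.24). The gene Gm13629 overlaps Scn9a on the opposite strand and had 2688 UMIs in WBRT-28d and 2261 UMIs in ShamRT-28d over the whole library, and as no source used here states whether counting used strand, reads of the 2 genes cannot be told apart if it did not.

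Scn1a, in contrast, was past 1.5-fold in no neuron class, but its ratio was below 1 in 9 of 10 excitatory clusters, with the whole interval below 1 in 6. The ratios ran from 0.660 to 1.07. In Pvalb interneurons Scn1a had 549.6 CPM in WBRT-28d, against 684 CPM in ShamRT-28d (ratio 0.804, 0.712 to 0.908). The main spiny cluster, number 19, went the other way, with 345 CPM in WBRT-28d, against 264 CPM in ShamRT-28d (ratio 1.31, 1.18 to 1.45). Scn2a1 was lower in layer 6 corticothalamic neurons, at 394 CPM in WBRT-28d, against 615 CPM in ShamRT-28d (ratio 0.640, 0.552 to 0.738), and in Sst interneurons, at 346 CPM in WBRT-28d, against 587 CPM in ShamRT-28d (ratio 0.589, 0.426 to 0.805). Scn3a was lower in indirect-pathway spiny neurons, at 153 CPM in WBRT-28d, against 277 CPM in ShamRT-28d (ratio 0.553, 0.438 to 0.696), with 0.541 (0.424 to 0.687) in the leading cluster. That cluster held 93.2% of the class in WBRT-28d and 97.6% in ShamRT-28d. The second ratio thus rests on nearly the same nuclei and says little about their mix. In excitatory clusters the Scn3a ratio was below 1 in 9 of 10.

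Among sodium beta genes, Scn4b was lower in spiny neurons. It had 42.3 CPM in WBRT-28d, against 84.7 CPM in ShamRT-28d (ratio 0.4995, 0.404 to 0.618) in the spiny class, with 0.598 (0.479 to 0.748) in the leading cluster, and 74.9 CPM in WBRT-28d, against 127 CPM in ShamRT-28d (ratio 0.590, 0.419 to 0.826) in the indirect-pathway class. Spiny markers, which define the class, summed to 7274 CPM in WBRT-28d and 8715 CPM in ShamRT-28d, in the same direction, and the part of this in the result was not tested. Scn2b had 21.9 CPM in WBRT-28d, against 33.9 CPM in ShamRT-28d (ratio 0.646, 0.413 to 0.999) in upper-layer cortical neurons. It was within 1.5-fold, with an interval that held 1, in the leading cluster at 0.769 (0.393 to 1.46), under the stricter gate at 0.749 (0.401 to 1.37) and with classes from clusters at 0.919 (0.631 to 1.33).

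**Figure D4:**
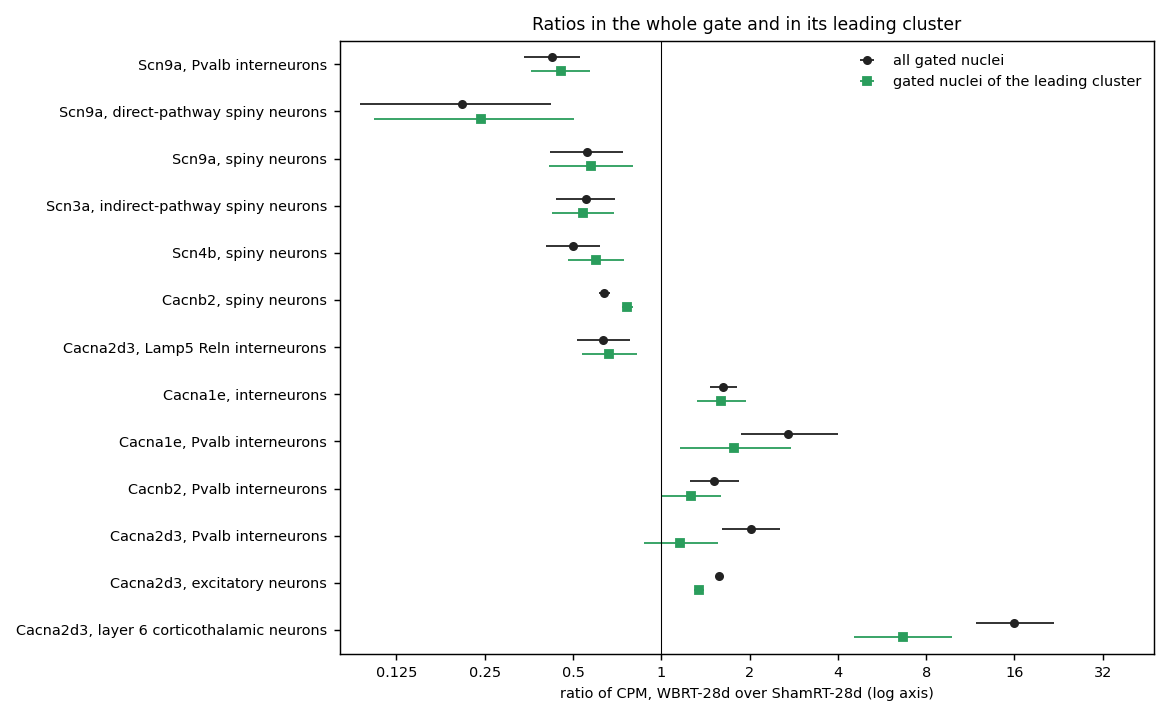
Ratio of CPM, WBRT-28d over ShamRT-28d, on a log axis for 13 gene and class pairs, in all gated nuclei (black circles) and in the gated nuclei of the cluster that holds most of the class (green squares), with exact 95% intervals as bars. The pairs below 1 stay below 1, as Scn9a in Pvalb interneurons at 0.425 and 0.455, while Cacna2d3 in Pvalb interneurons moved to 1.16 from 2.01.

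Cacna2d3 was the calcium channel gene with the widest spread of ratios. In layer 6 corticothalamic neurons it had 401 CPM in WBRT-28d, against 25.2 CPM in ShamRT-28d (ratio 15.9, 11.8 to 21.8), from 224 UMIs in WBRT-28d and 55 UMIs in ShamRT-28d. In the leading cluster the ratio was 6.67 (4.55 to 9.81), so it was smaller but still far from 1. Its level elsewhere was far above that of these cells, the upper-layer cortical level being 3.17 times (2.76 to 3.65) in WBRT-28d and 39.2 times (29.9 to 52.2) in ShamRT-28d the layer 6 level. Markers of other types were also higher in the WBRT-28d layer 6 gate. Spiny markers, all 8 detected, summed to 1679.9 CPM in WBRT-28d and 1348 CPM in ShamRT-28d, all 8 oligodendrocyte markers to 784 CPM in WBRT-28d and 253 CPM in ShamRT-28d and all 5 upper-layer markers to 165 CPM in WBRT-28d and 63.7 CPM in ShamRT-28d. Layer 6 markers summed to 4771 CPM in WBRT-28d and 5889 CPM in ShamRT-28d. Of the gated nuclei, 42 in WBRT-28d and 201 in ShamRT-28d lay in cluster 27, and the part of this mix was not tested beyond the ratio in that cluster.

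Cacna2d3 was also higher in excitatory neurons, at 1281 CPM in WBRT-28d, against 812 CPM in ShamRT-28d (ratio 1.58, 1.54 to 1.62), and 1.34 (1.29 to 1.39) in their leading cluster, inside 1.5-fold, as with classes from clusters at 1.49 (1.46 to 1.53). Spiny markers in excitatory neurons, all 8 detected in both libraries, summed to 1874 CPM in WBRT-28d and 1465 CPM in ShamRT-28d and all 8 oligodendrocyte markers to 752 CPM in WBRT-28d and 403 CPM in ShamRT-28d, and their part in the result was not tested. Across excitatory clusters the whole interval lay above 1 in 9 of 10. In Lamp5 Reln interneurons it was lower, at 506 CPM in WBRT-28d, against 798 CPM in ShamRT-28d (ratio 0.634, 0.515 to 0.782). In the spiny subtypes, where it is highest, it was within 1.5-fold, at 2885 CPM in WBRT-28d, against 3045 CPM in ShamRT-28d (ratio 0.947, 0.893 to 1.01) in the indirect-pathway class.

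In Pvalb interneurons the members that were higher in WBRT-28d were calcium channel genes. Cacna1e had 140.1 CPM in WBRT-28d, against 51.7 CPM in ShamRT-28d (ratio 2.71, 1.88 to 4.01), with 1.77 (1.16 to 2.77) in the leading cluster. Cacna2d1 had 128 CPM in WBRT-28d, against 80.4 CPM in ShamRT-28d (ratio 1.60, 1.16 to 2.22), with 2.21 (1.36 to 3.71) in the leading cluster. Both genes had their whole interval above 1 there. Cacna2d3 had 289 CPM in WBRT-28d, against 144 CPM in ShamRT-28d (ratio 2.01, 1.60 to 2.55), with 1.16 (0.872 to 1.55) in the leading cluster and 1.46 (1.11 to 1.92) under the stricter gate. Cacnb2 had 334 CPM in WBRT-28d, against 219.7 CPM in ShamRT-28d (ratio 1.52, 1.25 to 1.85), with 1.27 (1.01 to 1.60) in the leading cluster. All 4 genes were at higher levels in excitatory and spiny neurons than in this class. Excitatory markers there summed to 391 CPM in WBRT-28d and 258 CPM in ShamRT-28d, spiny markers to 1709 CPM in WBRT-28d and 1321 CPM in ShamRT-28d and oligodendrocyte markers to 1057 CPM in WBRT-28d and 414 CPM in ShamRT-28d, and their part in the result was not tested. Interneurons as a whole had 330.2 CPM in WBRT-28d, against 203 CPM in ShamRT-28d (ratio 1.63, 1.47 to 1.81) of Cacna1e, with 1.49 (1.32 to 1.68) under the stricter gate, beside excitatory markers at 472 CPM in WBRT-28d and 346 CPM in ShamRT-28d. Sst interneurons, with 30 nuclei in WBRT-28d and 30 nuclei in ShamRT-28d, had 357 CPM in WBRT-28d, against 194 CPM in ShamRT-28d (ratio 1.84, 1.22 to 2.78) of Cacna2d1. That ratio was unsteady, at 10.4 (5.02 to 24.9) under the stricter gate, from 77 UMIs in WBRT-28d and 8 UMIs in ShamRT-28d, and 1.47 (1.16 to 1.87) with classes from clusters.

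Cacnb2 was lower in spiny neurons, at 1314 CPM in WBRT-28d, against 2053 CPM in ShamRT-28d (ratio 0.640, 0.615 to 0.666). In the leading cluster it was 0.765 (0.733 to 0.798), inside 1.5-fold. Gm13269 and Gm10848 overlap Cacnb2 on the opposite strand, with 2098 UMIs in WBRT-28d and 2345 UMIs in ShamRT-28d for Gm13269 and 1097 UMIs in WBRT-28d and 1242 UMIs in ShamRT-28d for Gm10848 over the whole library, and the same limit on strand holds. In the 2 subtypes gated within that class it was nearer 1, at 2584 CPM in WBRT-28d, against 3086 CPM in ShamRT-28d (ratio 0.837, 0.788 to 0.890) in the indirect-pathway class and 1318 CPM in WBRT-28d, against 1698 CPM in ShamRT-28d (ratio 0.776, 0.714 to 0.844) in the direct-pathway class. Cacnb1 had 21.7 CPM in WBRT-28d, against 46.0 CPM in ShamRT-28d (ratio 0.471, 0.247 to 0.867) in direct-pathway spiny neurons, and 0.548 (0.265 to 1.07) under the stricter gate. Among T-type genes, Cacna1g had 15.98 CPM in WBRT-28d, against 7.97 CPM in ShamRT-28d (ratio 2.0, 1.15 to 3.69) in spiny neurons and Cacna1i 82.3 CPM in WBRT-28d, against 47.7 CPM in ShamRT-28d (ratio 1.73, 1.19 to 2.47) in layer 6 corticothalamic neurons. Under the stricter gate the interval held 1 for both, at 1.64 (0.772 to 3.78) for Cacna1g and 1.42 (0.789 to 2.42) for Cacna1i. With classes from clusters the ratio was 3.44 (1.23 to 13.3) for Cacna1g and 1.46 (1.19 to 1.79) for Cacna1i, and in the leading cluster 3.97 (1.18 to 20.8) for Cacna1g. In excitatory neurons Cacna2d2 had 13.9 CPM in WBRT-28d, against 8.89 CPM in ShamRT-28d (ratio 1.56, 1.199 to 2.03), with 1.49 (1.12 to 1.98) under the stricter gate and 8.30 (1.99 to 73.7) in the leading cluster, from 18 UMIs in WBRT-28d and 2 UMIs in ShamRT-28d. Cacna2d4 there had 1.46 CPM in WBRT-28d, against 3.10 CPM in ShamRT-28d (ratio 0.470, 0.235 to 0.890), with 0.251 (0.0450 to 0.952) in the leading cluster, from 3 UMIs in WBRT-28d and 11 UMIs in ShamRT-28d. Its interval held 1 with doublets kept, at 0.639 (0.361 to 1.10), under the stricter gate, at 0.537 (0.252 to 1.07), and with classes from clusters, at 0.666 (0.418 to 1.05). Cacna1f, with 16 UMIs in WBRT-28d and 45 UMIs in ShamRT-28d over all neurons, had a ratio of 0.283 (0.1495 to 0.511).

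Genes whose products bind these channels were counted in the same way. Of 13 sodium channel partners, such as the ankyrins and the intracellular FGF family, 1 of 12 measured were higher and 0 lower past 1.5-fold in excitatory neurons. In spiny neurons 3 of 12 measured were higher and 0 lower, and in interneurons 0 of 13 measured were higher and 0 lower. Of 20 calcium channel partners, such as the Cacng family and presynaptic scaffolds, 4 of 14 measured were higher and 0 lower in excitatory neurons. In spiny neurons 4 of 14 measured were higher and 1 lower, and in interneurons 0 of 13 measured were higher and 0 lower. By comparison, 13.7% of all genes were past the fold in excitatory neurons, 7.0% in the higher direction, 20.8% of all genes were past the fold in spiny neurons, 13.6% in the higher direction, and 13.5% of all genes were past the fold in interneurons, 6.37% in the higher direction. The median log2 ratio of the calcium channel partners was 0.22 in excitatory neurons, against 0.00 for all genes, 0.27 in spiny neurons, against 0.09, and 0.0027 in interneurons, against -0.03.

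OPCs, which are known to carry voltage-gated sodium and calcium currents, numbered 643 nuclei in WBRT-28d and 306 nuclei in ShamRT-28d. Their Cacna1c level was 618 CPM in WBRT-28d and 514 CPM in ShamRT-28d. That of Cacna1a was 470.1 CPM in WBRT-28d and 433 CPM in ShamRT-28d, and that of Cacna2d1 400.5 CPM in WBRT-28d and 352 CPM in ShamRT-28d. After the subtraction of free RNA described below, 483 CPM in WBRT-28d and 439 CPM in ShamRT-28d was left for Cacna1c and 145 CPM in WBRT-28d and 169 CPM in ShamRT-28d for Scn3a. Scn3a in OPCs was 7.62 times (6.16 to 9.49) in WBRT-28d and 18.2 times (13.3 to 25.4) in ShamRT-28d its level in oligodendrocytes, their mature descendants. Of 16 measured members, 2 were higher and 0 lower past the fold, against 12.9% of all genes. The median log2 ratio was 0.21, against 0.02 for all genes. The 2 members were Cacna1b, with 62.2 CPM in WBRT-28d, against 39.3 CPM in ShamRT-28d (ratio 1.58, 1.12 to 2.27), and Cacnb1, whose interval held 1. Cacna1b was within 1.5-fold with doublets kept, at 1.44 (1.07 to 1.96), and after subtraction of free RNA, at 1.28, where 25.9 CPM in WBRT-28d and 20.2 CPM in ShamRT-28d was left. In committed precursors, the next step of the lineage with 33 nuclei in WBRT-28d and 25 nuclei in ShamRT-28d, Scn8a was at 297 CPM in WBRT-28d and 285 CPM in ShamRT-28d, which was 4.58 times (3.16 to 6.47) in WBRT-28d and 6.62 times (4.44 to 9.59) in ShamRT-28d its level in oligodendrocytes. Immature neurons numbered 27 nuclei in WBRT-28d and 100 nuclei in ShamRT-28d, but only 4 nuclei of WBRT-28d against 119 of ShamRT-28d lay in the cluster with immature markers, so no ratio is given for them.

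In glia and vessel cells, all channel genes past the fold were higher in WBRT-28d. Of the measured members, 16 of 22 were higher past the fold in oligodendrocytes, against 19.9% of all genes. The count was 8 of 13 in microglia (19.3%) and 3 of 17 in astrocytes (13.6%), and 0 members were lower past the fold in these 3 classes. It was 6 of 11 in endothelial cells (19.7%), 3 of 7 in mural cells (30.2%), 2 of 8 in fibroblasts (15.9%) and 2 of 5 in choroid plexus cells (19.5%). The median log2 ratio of the measured members was 0.92 in oligodendrocytes and 0.73 in microglia, against 0.04 for all genes of oligodendrocytes and 0.02 for those of microglia. In the same nuclei, 8 marker genes of neurons were also higher in WBRT-28d. Their summed level, as a percent of that over the whole library, was 19.8% in WBRT-28d and 8.59% in ShamRT-28d for oligodendrocytes. It was 21.7% in WBRT-28d and 11.3% in ShamRT-28d for microglia, 14.1% in WBRT-28d and 8.95% in ShamRT-28d for astrocytes and 19.6% in WBRT-28d and 11.9995% in ShamRT-28d for OPCs.

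When RNA in the proportions of the whole library was subtracted at that level from each class, the median log2 ratio of the members was 0.076 in oligodendrocytes, against 0.92 as counted. It was -0.30 in microglia, against 0.73, and -0.19 in astrocytes, against 0.41. In OPCs it was 0.076, against 0.21. A count left under 3 was set to 3, and the members left at 0 in at least 1 library numbered 6 of 13 in microglia, 7 of 22 in oligodendrocytes, 5 of 17 in astrocytes and 0 of 16 in OPCs, so the medians of microglia, oligodendrocytes and astrocytes rest in part on that floor. In oligodendrocytes Cacna2d3, at 171 CPM in WBRT-28d, against 48.8 CPM in ShamRT-28d (ratio 3.50, 3.03 to 4.05) as counted, was left with 0 CPM in both libraries, as was Cacna1e. Cacnb2 in microglia was left with 725 CPM in WBRT-28d and 727 CPM in ShamRT-28d, and Cacna2d4 in oligodendrocytes with 38.7 CPM in WBRT-28d and 36.0 CPM in ShamRT-28d. Cacna1c in mural cells was left with 2092 CPM in WBRT-28d and 2314 CPM in ShamRT-28d. In choroid plexus cells Cacnb4 was left with 1225 CPM in WBRT-28d and 902 CPM in ShamRT-28d, Cacna2d3 with 392 CPM in WBRT-28d and 191 CPM in ShamRT-28d and Cacnb2 with 292 CPM in WBRT-28d and 170.0 CPM in ShamRT-28d. The same step cannot be taken for neurons, which express the 8 genes themselves. What is called free RNA here was scaled from these 8 genes in kept nuclei, and its origin was not tested.

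**Figure D5:**
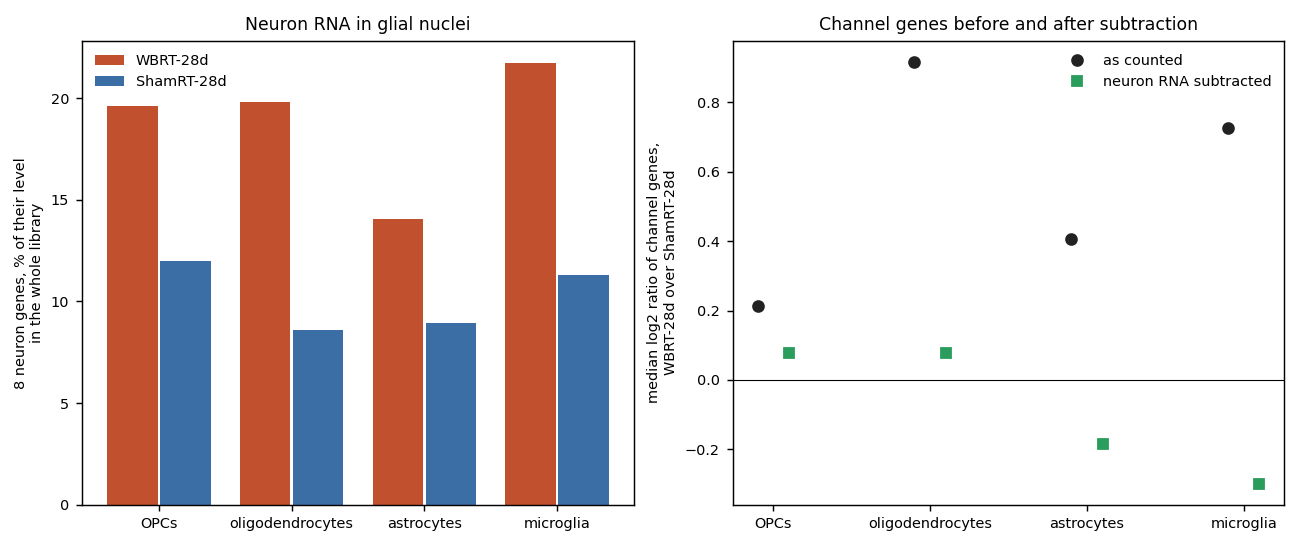
Left, summed level of 8 neuron genes in 4 classes of glia and precursors as a percent of their level in the whole library, WBRT-28d (orange) beside ShamRT-28d (blue). Right, the median log2 ratio of the channel genes, WBRT-28d over ShamRT-28d, as counted (black circles) and after subtraction of that RNA (green squares), where oligodendrocytes go to 0.076 from 0.92.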

How the data were processed

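Whole brains of C57BL/6J mice were measured by droplet single-nucleus RNA-seq in 2 libraries, each pooling 2 mice. The deposited values are UMI counts per gene and barcode, which the authors made with Cell Ranger 5.0.0 on a pre-mRNA reference of mm10, so introns were counted; the annotation release and the use of strand are not given in the sources used here. Barcodes with under 500 genes or over 5% mitochondrial UMIs were left out, and then the barcodes with the highest Scrublet doublet scores, to an expected 0.8% per 1000 barcodes: 12.8% in WBRT-28d and 9.18% in ShamRT-28d. A nucleus entered a class when at least 3 UMIs from at least 2 of its markers gave a share of its UMIs of at least 0.15 times the mean of the 60 highest nuclei, and 1.5 times the relative share of the next class. 13.6% of kept nuclei in WBRT-28d and 13.0% in ShamRT-28d entered none. Classes with at least 25 nuclei per library were compared. Clusters came from Louvain clustering of 30 principal components of 2000 variable genes with the channel genes left out. Ratios carry exact conditional binomial intervals and levels exact Poisson intervals. The ratio intervals were tested on simulated Poisson counts, which hold no spread between nuclei or mice, and the level intervals were not tested. Full values go to members whose UMIs in some neuron subtype or precursor class reached 200 with the libraries summed, the others are given by highest class, range or UMIs, and a change is named when it is past 1.5-fold with at least 50 UMIs and an interval that leaves out 1. Gene positions are those of GRCm38. The members and gene lists were chosen with earlier results of these data known, and the values of some members are not reported here. Alternatives were doublets kept, a stricter gate, clusters, no filter, CPM without mitochondrial genes, other thresholds and free RNA subtracted. Clustering used scanpy 1.11.5 and igraph 0.11.9, intervals scipy 1.17.1, tables pandas 2.3.3 and numpy 2.4.6 and plots matplotlib 3.10.9, under Python 3.11.15.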

Additional observations from a re-analysis of the deposited data

Results flagged for a closer look

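Cacna2d3 and Cacnb2 lay on opposite sides of 1 in different neuron classes, and the difference between classes was not tested. The ratio of Cacna2d3, WBRT-28d over ShamRT-28d, was 1.58 in excitatory neurons, 15.9 in layer 6 corticothalamic neurons and 2.01 in Pvalb interneurons, but 0.634 in Lamp5 Reln interneurons. The ratio of Cacnb2 was 1.52 in Pvalb interneurons, but 0.640 in spiny neurons. In the leading cluster of the class, a step chosen after seeing the data, Cacnb2 had 1.27 (1.01 to 1.60) in Pvalb interneurons and 0.765 (0.733 to 0.798) in spiny neurons, and Cacna2d3 had 1.16 (0.872 to 1.55) in Pvalb interneurons.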

How the results depend on the processing

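The main limit is 1 library per condition, which leaves the spread between mice unknown. With a fold of 1.2 the count of members past the fold was 12 in excitatory neurons, 12 in spiny neurons, 11 in interneurons, 7 in OPCs and 12 in astrocytes, against 4, 6, 3, 2 and 3 at 1.5-fold. With at least 200 UMIs it was 2 in excitatory neurons, 0 in OPCs, 9 in oligodendrocytes, 1 in astrocytes and 4 in microglia, as fewer genes were measured. With at least 20 UMIs it was 4 in OPCs and 5 in astrocytes. The share of all genes past the fold was taken only in the main setting. Counts under any alternative therefore have no such share beside them and are no result about channel genes. The stricter gate gave 2 in excitatory neurons and 1 in interneurons, and the cause was not tested. Doublets kept gave 1 in OPCs and 5 in astrocytes. Clusters gave 5 in astrocytes, as did gated nuclei in clusters of the same name, an alternative chosen after seeing the data. With free RNA subtracted the counts were 1 in OPCs, 9 in oligodendrocytes, 7 in astrocytes and 5 in microglia, and the median log2 ratios 0.076 in oligodendrocytes, -0.19 in astrocytes and -0.30 in microglia. Those values rest in part on members left at 0 and set to the floor of 3 counts. Cacna2d3 in microglia was left with 0 CPM in WBRT-28d and 10.6 CPM in ShamRT-28d, so its ratio there, 0.206 with WBRT-28d at the floor, is set by the floor and is no measured fold, against 2.24 as counted. Members with the same highest class in both libraries numbered 22 with clusters, 14 with doublets kept and 17 with free RNA subtracted, against 17. With classes from clusters the ratio of Cacna2d3 in layer 6 corticothalamic neurons was 3.17, against 15.9 with the gate. No paired analysis was possible because each condition has 1 library, and leaving out a replicate was not possible for the same reason.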
